A study of Homo sapiens with 8 samples.

Results

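The 10 genes described here encode AP-1 transcription factors and factors that pair with them. They are FOS, FOSB, FOSL1 and FOSL2 of the FOS family, JUN, JUNB and JUND of the JUN family, and ATF3, MAFF and BATF3. They were chosen by symbol, matched to Ensembl identifiers through release 29 of the GENCODE annotation, and make up 10 of the 58735 genes in the series. RNA came from U2OS, an established human osteosarcoma line, carrying either the control shRNA shControl (genotype WT in the labels, control cells here) or the hairpin shWSB2 (WSB2 knockdown, KD cells). Each kind of cell was left without treatment or stimulated with TNF-α for 5 hours, and each of the 4 groups has 2 libraries. All cells grew in serum, which all groups share. Which hairpin these libraries carried, how concentrated TNF-α was and whether replicates came from separate cultures are not given in the sources used here, so that the spread between replicates may be technical.

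AP-1 is a dimer of basic leucine zipper (bZIP) proteins. FOS proteins cannot pair with each other and bind DNA with a JUN partner, whereas JUN proteins can also pair among themselves or with ATF proteins. The dimers bind the element TGACTCA, called TRE, and the element TGACGTCA, called CRE, at genes of growth, matrix breakdown and inflammation. FOS, FOSB, JUN, JUNB and ATF3 are textbook immediate-early genes, switched on within minutes and often off again within hours, while FOSL1 and FOSL2 respond later and for longer. TNF-α reaches these genes through the JNK, p38 and ERK kinases and through NF-κB. Small MAF proteins such as MAFF lack an activation domain and act as partners of other bZIP proteins, and BATF3, best known from dendritic cells, pairs with JUN proteins.

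Promoter sequence was searched near the start of these genes for a few short binding elements, AP-1 elements among them. The RefSeq promoter table on GRCh38.p14 covers 250 bases before to 50 bases after each start and held 8 of the 10 genes, with no entry for FOSL1 and BATF3. Both strands were searched. The CRE was found in JUND and MAFF, against 1.84% of all 34796 promoters of this length. The CRE-like octamer TGACATCA was found in JUN and ATF3, against 2.60% of all promoters. MAFF also held a match to the NF-κB consensus before another of its starts, which 11.3% of promoters had. The TRE was found in FOSL2, beginning 4 bases after the start, against 4.96% of promoters, and the CArG box, the element of SRF, in 0 of the 8 against 1.30%. Sequence farther than 250 bases before the start was not searched, so no match here does not show that a gene lacks an element. The matched windows are shown because they place the elements of 4 genes whose levels are described below. Capitals mark the element, and each sequence is written along the strand of its gene.
JUN, TGACATCA: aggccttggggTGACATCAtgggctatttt
ATF3, TGACATCA: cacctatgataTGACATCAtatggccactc
JUND, CRE: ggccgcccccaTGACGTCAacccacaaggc
MAFF, CRE: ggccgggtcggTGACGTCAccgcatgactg
MAFF, NF-κB match: ggctctccccGGAGTTTCCCagggcctccg

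The JUN window lies at chr1:58784096-58784125 on the minus strand and its element begins 67 bases before the RefSeq start, within what GENCODE 29 annotates as the exon of JUN. The ATF3 window lies at chr1:212565273-212565302 on the plus strand, outside the annotated gene, with the element 123 bases before the start. The JUND window lies at chr19:18281804-18281833 on the minus strand, also outside the gene, with the element 200 bases before the start. The MAFF windows lie at chr22:38201929-38201958 and chr22:38202908-38202937 on the plus strand, both in annotated exons, with elements 54 and 102 bases before their starts. These matches are of letters only. Binding was not measured in these libraries.

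The files hold FPKM values, which are reads per length of transcript and per size of library, from which between 15601098 and 18677023 whole reads per library could be recovered. The check of the knockdown gave WSB2 at 27.9 FPKM in control and 8.45 FPKM in KD cells without TNF-α, and at 25.1 and 9.09 FPKM with it, as group means. Of the mesenchymal and bone markers, VIM, SPARC and COL1A1 were at 146 FPKM or higher in every library and RUNX2 at 1.29 to 2.94 FPKM. COL1A2, another defining one, was at 0.0934 FPKM at most. The epithelial, leukocyte and endothelial markers were at 0.482 FPKM at most. The 2 unstimulated KD libraries stood apart from the other 6. Their reads came from genes of lower GC content, 50.1% and 50.6% on average against 53.2% to 53.8%, mitochondrial genes took 4.10% and 4.42% of their reads against 1.11% to 2.03%, and the authors' scaling took 1.21 times their read total as library size against 0.925 to 1.03 times in the others. Tests that rest on those 2 libraries are given below also after removal of each library's trend on GC content and on the length of genes, called the GC and length correction here. Replicates differed most in unstimulated control cells. There the variance between them was 30.1 times that of read sampling alone. It was 7.23 times in unstimulated KD, 4.31 in stimulated control and 2.45 in stimulated KD cells. All groups share 1 estimate of the spread in the tests.

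All 10 genes passed the filter on low reads, and the depth behind them differed widely. Over the 8 libraries together, FOSL2 had 70196 reads, JUN 56710, FOSL1 30211, JUNB 23890, JUND 16425 and MAFF 10091. ATF3 had 2570 reads, BATF3 1368, FOS 746 and FOSB 186, so the values of FOS and FOSB are the least precise. The levels below are FPKM in replicate 1 and then replicate 2 of each group. In bulk RNA, more cells that express a gene and more transcript per cell cannot be told apart.

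Within the FOS family, the late members carried almost all of the transcript. FOSL1 (ENSG00000175592, GRCh38 chromosome 11, 65892049 to 65900573, minus strand), which encodes FRA-1, was at 57.9 and 46.6 FPKM in unstimulated control cells, 39.2 and 35.9 in unstimulated KD cells, 162 and 169 in stimulated control cells, and 232 and 232 in stimulated KD cells. FOSL2 (ENSG00000075426, chromosome 2, 28392448 to 28417312, plus strand), which encodes FRA-2, was at 44.4 and 59.1 FPKM in unstimulated control cells, 46.5 and 44.3 in unstimulated KD cells, 100.1 and 106 in stimulated control cells, and 94.8 and 93.2 in stimulated KD cells. Both genes were higher in every stimulated library than in every unstimulated one. For FOSL1 the stimulated KD libraries were above the stimulated control libraries, and for FOSL2 they were below.

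FOS (ENSG00000170345, chromosome 14, 75278774 to 75282230, plus strand), the founding member, was at 1.63 and 1.66 FPKM in unstimulated control cells, 1.11 and 1.36 in unstimulated KD cells, 1.84 and 1.48 in stimulated control cells, and 2.07 and 2.60 in stimulated KD cells. FOSB (ENSG00000125740, chromosome 19, 45467995 to 45475179, plus strand) was at 0.228 and 0.208 FPKM, 0.164 and 0.121, 0.260 and 0.257, and 0.406 and 0.365 in the same order of groups, from 13 to 39 reads per library. In control cells the FOS libraries with and without TNF-α overlapped. In both genes the stimulated KD libraries were the highest 2 of the 8.

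The JUN family was expressed at a high level in all 4 groups. JUN (ENSG00000177606, chromosome 1, 58780788 to 58784327, minus strand), the main partner of FOS proteins, was at 97.2 and 93.2 FPKM in unstimulated control cells, 79.9 and 73.7 in unstimulated KD cells, 138 and 145 in stimulated control cells, and 165 and 168 in stimulated KD cells. JUNB (ENSG00000171223, chromosome 19, 12791496 to 12793315, plus strand), a JUN protein with weaker activation of many targets, was at 42.0 and 31.8 FPKM, 23.2 and 17.6, 142 and 172, and 186 and 191 in the same order. JUND (ENSG00000130522, chromosome 19, 18279760 to 18281622, minus strand), the member most often expressed without a stimulus, was at 75.2 and 62.3 FPKM, 44.2 and 41.1, 70.0 and 74.1, and 79.1 and 83.5. The groups of JUN and of JUNB did not overlap. For JUND the control libraries with and without TNF-α overlapped, and the unstimulated KD libraries were the lowest 2.

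The other 3 genes were less abundant per length of transcript. ATF3 (ENSG00000162772, chromosome 1, 212565334 to 212620777, plus strand), a stress-induced factor that often represses its targets, was at 3.98 and 3.96 FPKM in unstimulated control cells, 2.72 and 2.50 in unstimulated KD cells, 7.28 and 7.16 in stimulated control cells, and 5.11 and 5.76 in stimulated KD cells. MAFF (ENSG00000185022, chromosome 22, 38200767 to 38216511, plus strand) was at 5.74 and 4.95 FPKM, 4.21 and 3.11, 17.4 and 18.4, and 27.6 and 28.2 in the same order. BATF3 (ENSG00000123685, chromosome 1, 212686418 to 212699985, minus strand) was at 4.57 and 2.32 FPKM, 1.80 and 1.97, 5.12 and 4.59, and 4.82 and 5.46. The replicates of BATF3 in unstimulated control cells lay farthest apart for their level. ATF3 and FOSL2 were the only 2 of the 10 genes whose highest libraries were those of stimulated control cells.

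**Figure D1:**
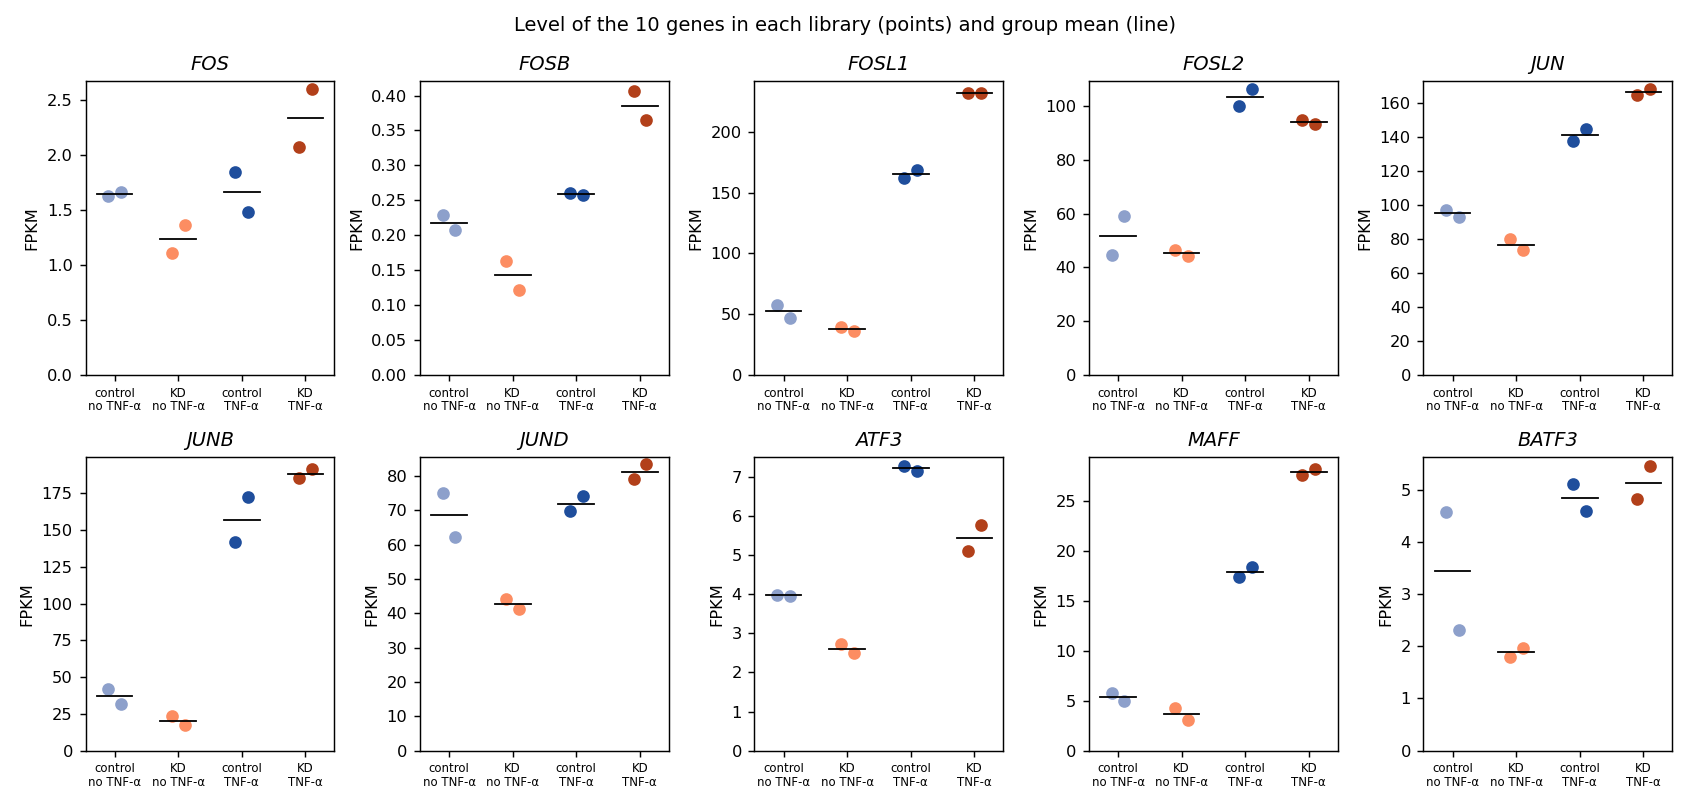
Level in FPKM (y axis, from 0, with its own range in each panel) of the 10 genes in the 4 groups (x axis). Points are the 2 libraries of a group and lines their mean. JUNB, FOSL1 and MAFF climb most with TNF-α, from 36.9, 52.3 and 5.34 FPKM on average in unstimulated control cells to 157, 165 and 17.9 in stimulated ones, and ATF3 and FOSL2 are lower in stimulated KD than in stimulated control cells.

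The order of the levels changed with TNF-α. In unstimulated control cells it was JUN at 95.2 FPKM on average, JUND at 68.7, FOSL1 at 52.3, FOSL2 at 51.8, JUNB at 36.9, MAFF at 5.34, ATF3 at 3.97, BATF3 at 3.45, FOS at 1.64 and FOSB at 0.218. The libraries of the neighbours FOSL1 and FOSL2 overlapped, as did those of ATF3 and BATF3. In stimulated control cells FOSL1 at 165 FPKM, JUNB at 157 and JUN at 141 led, with overlap between FOSL1 and JUNB and between JUNB and JUN, followed by FOSL2 at 103 and JUND at 72.0. In stimulated KD cells the first 5 were FOSL1 at 232 FPKM, JUNB at 188, JUN at 167, FOSL2 at 94.0 and JUND at 81.3, with no overlap between neighbours among them. In unstimulated KD cells they were JUN at 76.8 FPKM, FOSL2 at 45.4, JUND at 42.6, FOSL1 at 37.6 and JUNB at 20.4, again with no overlap. MAFF, ATF3, BATF3, FOS and FOSB took the lower 5 places in this order in all 4 groups. The mean level of JUN was above that of 97.1% of the tested genes in unstimulated control cells, that of FOS above 40.3% and that of FOSB above 10.8%.

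TNF-α raised 6 of the 10 genes in control cells, and the size of the rise differed widely between family members. The rise was 4.26-fold for JUNB, 3.35-fold for MAFF, 3.17-fold for FOSL1, 1.99-fold for FOSL2, 1.82-fold for ATF3 and 1.49-fold for JUN, as ratios of mean FPKM. The values for JUND, FOSB and FOS were 1.05, 1.19 and 1.01, and these 3 did not pass the test. The test was limma over 16528 genes, on log2(FPKM + 1), and a gene was called where its Benjamini-Hochberg adjusted p was under 0.05. Of all genes tested, 3.1% were called higher with TNF-α in control cells.

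On the log2 scale JUNB differed by 2.07 (standard error 0.171, adjusted p = 0.000544 from limma), FOSL1 by 1.65 (standard error 0.111, adjusted p = 0.000179 from limma) and MAFF by 1.58 (standard error 0.124, adjusted p = 0.000435 from limma). These 3 genes ranked 29, 51 and 54 by the size of their rise among the 16528. FOSL2 differed by 0.99 (standard error 0.126, adjusted p = 0.00496 from limma), ATF3 by 0.73 (standard error 0.0970, adjusted p = 0.00656 from limma) and JUN by 0.57 (standard error 0.0826, adjusted p = 0.00984 from limma). BATF3 was at 0.44 (standard error 0.218, adjusted p = 0.350 from limma), with both stimulated libraries above both unstimulated ones. JUND, FOSB and FOS were at 0.07, 0.05 and 0.01. The thresholds of the study's methods are P under 0.05 with a log2 change of more than 1 either way, from edgeR. They were applied here and below to limma on log2(FPKM + 1), so the counts cannot be set against those of the study. JUNB, FOSL1 and MAFF passed, against 1.1% of all genes.

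The median difference of the 10 genes was 0.65, against 0.01 over all genes tested, and 8 of the 10 had both stimulated libraries above both unstimulated ones, against 22.6% of all genes. With both unstimulated KD libraries left out of the fit, the same 6 genes were called. JUNB, FOSL1 and MAFF were called in all 18 alternatives. FOSL2, JUN and ATF3 depended on which libraries set the spread. Without replicate 2 of the stimulated control cells their adjusted p from limma was 0.0588, 0.117 and 0.0643, without replicate 1 it was 0.0405, 0.0704 and 0.0662, and with only the libraries compared 0.0501, 0.126 and 0.0615. BATF3 was called (0.82, adjusted p = 0.0155 from limma) without replicate 1 of the unstimulated control cells, the library in which it was at 4.57 FPKM.

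The comparison of KD with control cells after TNF-α asks how these factors respond when WSB2, which the study links to the shutdown of NF-κB, is low. None of the 10 genes was called in limma, against 0.115% of all genes, while 6 of the 10 had an unadjusted p under 0.05, against 8.16% of all genes. A voom fit of the recovered reads also called 0. The level of MAFF was 1.56-fold that of control cells, of FOSB 1.49-fold, of FOS 1.40-fold, of FOSL1 1.40-fold, of JUNB 1.20-fold, of JUN 1.18-fold and of JUND 1.13-fold. In these 7 genes both KD libraries were above both control libraries, against 23.9% of all genes. ATF3 was 1.33 times and FOSL2 1.10 times as high in control as in KD cells, with both KD libraries below both control libraries, against 22.3% of all genes, and BATF3 overlapped.

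MAFF was at 0.61 on the log2 scale (standard error 0.124, adjusted p = 0.170 from limma), rank 83 of 16528 from the highest. FOSL1 was at 0.49 (standard error 0.111, adjusted p = 0.221 from limma), rank 175. ATF3 was at -0.35 (standard error 0.0970, adjusted p = 0.312 from limma), rank 351 from the lowest. These 3 had the largest differences of the 10 on this scale, whereas by ratio of FPKM that of FOSB was larger than those of FOSL1 and ATF3, and that of FOS larger than that of ATF3. FOS was at 0.32, JUNB at 0.27, JUN at 0.24, JUND at 0.17, FOSB at 0.14, BATF3 at 0.07 and FOSL2 at -0.13. The median was 0.20 against 0.00 over all genes tested, and 0 of the 10 passed the thresholds of the study's methods, against 0.109% of all genes.

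Of the 10, FOSL1 was called in the most alternatives, 4 of the 18. Its adjusted p from limma was 0.0423 with only the 4 stimulated libraries in the fit, 0.0192 with the GC and length correction, and 0.0308 and 0.0312 without replicate 1 or replicate 2 of the unstimulated control cells. Over all 18 alternatives it ranged from 0.0192 to 0.878 while the difference stayed between 0.46 and 0.51. MAFF was called in 1 of the 18, with only the stimulated libraries (adjusted p = 0.0381 from limma), and its difference stayed between 0.57 and 0.65. ATF3 stayed between -0.43 and -0.28 and was called in none of the 18. The direction of these 3 genes was the same in all 18.

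Without TNF-α, KD cells had lower values than control cells for all 10 genes, and 6 of them were called lower. Of all genes tested, 30.2% were called lower in this comparison and 29.8% higher, so the call by itself is common there. JUNB was at 0.553 times its level in control cells, JUND at 0.621, ATF3 at 0.658, MAFF at 0.685, FOSL1 at 0.719 and JUN at 0.807. BATF3 was at 0.547 times, FOSB at 0.653, FOS at 0.750 and FOSL2 at 0.877, and these 4 did not pass the test. In 9 of the 10, all but FOSL2, both KD libraries lay below both control libraries, against 39.7% of all genes.

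The log2 difference was -0.82 for JUNB (standard error 0.171, adjusted p = 0.00404 from limma), -0.67 for JUND (standard error 0.103, adjusted p = 0.000981 from limma) and -0.46 for ATF3 (standard error 0.0970, adjusted p = 0.00430 from limma). FOSL1 was at -0.46 and MAFF at -0.45, with adjusted p of 0.00826 and 0.0146 from limma, and JUN at -0.31 with 0.0132. BATF3 was at -0.58 (standard error 0.218, adjusted p = 0.0511 from limma), FOS at -0.25, FOSL2 at -0.17 and FOSB at -0.09. The median of the 10 was -0.46 and that of all genes 0.00. None of the 10 passed the thresholds of the study's methods, against 11.9% of all genes.

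This comparison rests on the 2 libraries that stand apart, and its size moved with the treatment of their composition. Taken over 16520 genes, none of which is an independent replicate, the log2 difference followed GC content with a Spearman correlation of -0.70, against 0.04 for KD with TNF-α. All 10 genes had a GC content above the median of the tested genes, which was 49.4%, from 50.5% in ATF3 to 69.7% in JUND. With the GC and length correction, which left 27.9% of all genes called lower and 23.3% higher, only ATF3 of the 10 was still called lower, at -0.29 (adjusted p = 0.0243 from limma). FOSB was then called higher at 0.31 (adjusted p = 0.00513 from limma), and JUNB, JUND and FOSL1 were at -0.15, -0.02 and 0.15. FOSB was under 1 FPKM in every library, where log2(FPKM + 1) shrinks differences. The correction removes the trend of all genes in full there, so the turned sign of FOSB may come from the correction itself, which was not tested. With total reads as the scale, under which the median of all genes is 0.13, JUNB at -0.55 and JUND at -0.39 were called. With upper-quartile factors, which move it to -0.11, 9 were called lower. The share of all genes called was not counted under these scalings, so these counts cannot be set against it. Without replicate 2 of the unstimulated KD cells 3 were called, JUNB, JUND and ATF3. The part of library composition in the lower levels was otherwise not tested.

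**Figure D2:**
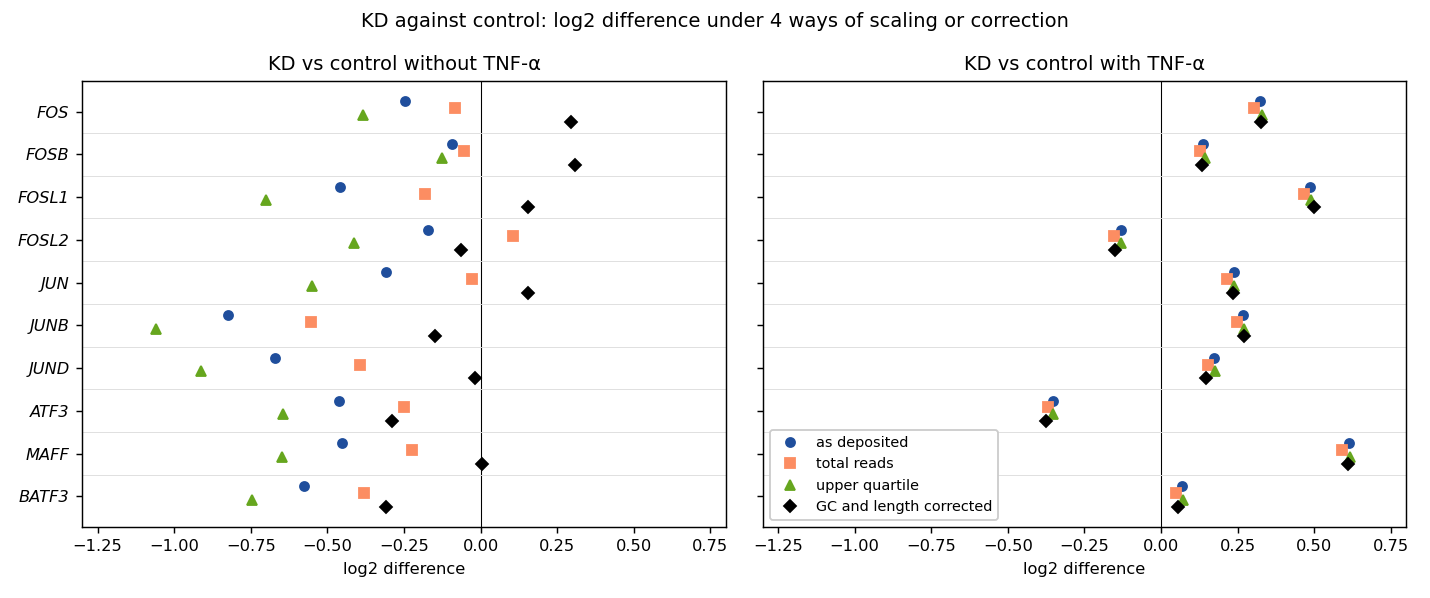
Log2 difference of KD against control (x axis) for the 10 genes (y axis), without TNF-α on the left and with TNF-α on the right. Symbols are the values as deposited, with total reads, with upper-quartile factors and with the GC and length correction. Without TNF-α the 4 symbols of a gene spread widely, from -0.70 to 0.15 for FOSL1, whereas with TNF-α they lie close together, with all 4 of FOSL1 between 0.47 and 0.50.

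In KD cells TNF-α raised all 10 genes, against 31.1% of all genes called higher. The ratio of mean FPKM was 9.23 for JUNB, 7.61 for MAFF, 6.18 for FOSL1, 2.73 for BATF3, 2.71 for FOSB, 2.17 for JUN, 2.08 for ATF3, 2.07 for FOSL2, 1.91 for JUND and 1.89 for FOS. The log2 difference was 3.16 for JUNB (standard error 0.171, adjusted p = 2.24e-05 from limma), 2.64 for MAFF (standard error 0.124, adjusted p = 1.42e-05 from limma) and 2.60 for FOSL1 (standard error 0.111, adjusted p = 1.02e-05 from limma). The same 3 genes led as in control cells, and they ranked 14, 27 and 28 among the 16528. The other 7 lay between 0.28 for FOSB and 1.11 for JUN, and in all 10 both stimulated libraries were above both unstimulated ones, against 41.3% of all genes. At the thresholds of the study's methods, applied to these limma values, 6 of the 10 passed, against 14.4% of all genes. FOSB and ATF3 did not pass despite ratios of 2.71 and 2.08, because the pseudocount shrinks their log2 differences.

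The unstimulated KD libraries are the base of these ratios, and they are also the KD libraries of the comparison without TNF-α. With the GC and length correction, JUNB was at 2.45, MAFF at 2.10, FOSL1 at 1.97, FOSL2 at 0.83, BATF3 at 0.81, ATF3 at 0.64, JUN at 0.61 and JUND at 0.20, all still called, against 28.9% of all genes. FOS was then at 0.00 and FOSB at -0.20 (adjusted p = 0.0273 from limma), and 27.3% of all genes were called lower. The limit of the correction for FOSB, which was under 1 FPKM, holds here too. With total reads FOS was at 0.34 (adjusted p = 0.0515 from limma) and the other 9 were called higher, with the share of all genes not counted.

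The interaction tests directly whether the response to TNF-α differed between KD and control cells. It was called for 7 of the 10 genes, all with a larger response in KD cells, against 23.8% of all genes called in that direction. JUNB was at 1.09 on the log2 scale (standard error 0.242, adjusted p = 0.00864 from limma), MAFF at 1.06 (standard error 0.176, adjusted p = 0.00308 from limma) and FOSL1 at 0.94 (standard error 0.157, adjusted p = 0.00315 from limma). JUND was at 0.84, FOS at 0.57, JUN at 0.54 and FOSB at 0.23. BATF3 at 0.65 (adjusted p = 0.125 from limma), ATF3 at 0.11 and FOSL2 at 0.04 were not called. ATF3 and FOSL2, the 2 genes with lower levels in stimulated KD cells, thus rose with TNF-α in both kinds of cell, by 0.73 and 0.83 for ATF3 and by 0.99 and 1.03 for FOSL2.

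Of the 7, only MAFF and FOSL1 were called under every alternative. With the GC and length correction MAFF was at 0.61 (adjusted p = 0.0141 from limma) and FOSL1 at 0.35 (adjusted p = 0.0173 from limma), while JUNB at 0.42 (adjusted p = 0.0517 from limma), JUND at 0.17 and JUN at 0.08 were not called. The share of all genes called above 0 was then 19.1%. With total reads 4 were called, which were MAFF, FOSL1, JUNB and JUND, and the share of all genes was not counted. FOSB was called in 2 of 16 alternatives and FOS in 8 of 16. Across all tested genes the interaction followed GC content with a Spearman correlation of 0.68.

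**Figure D3:**
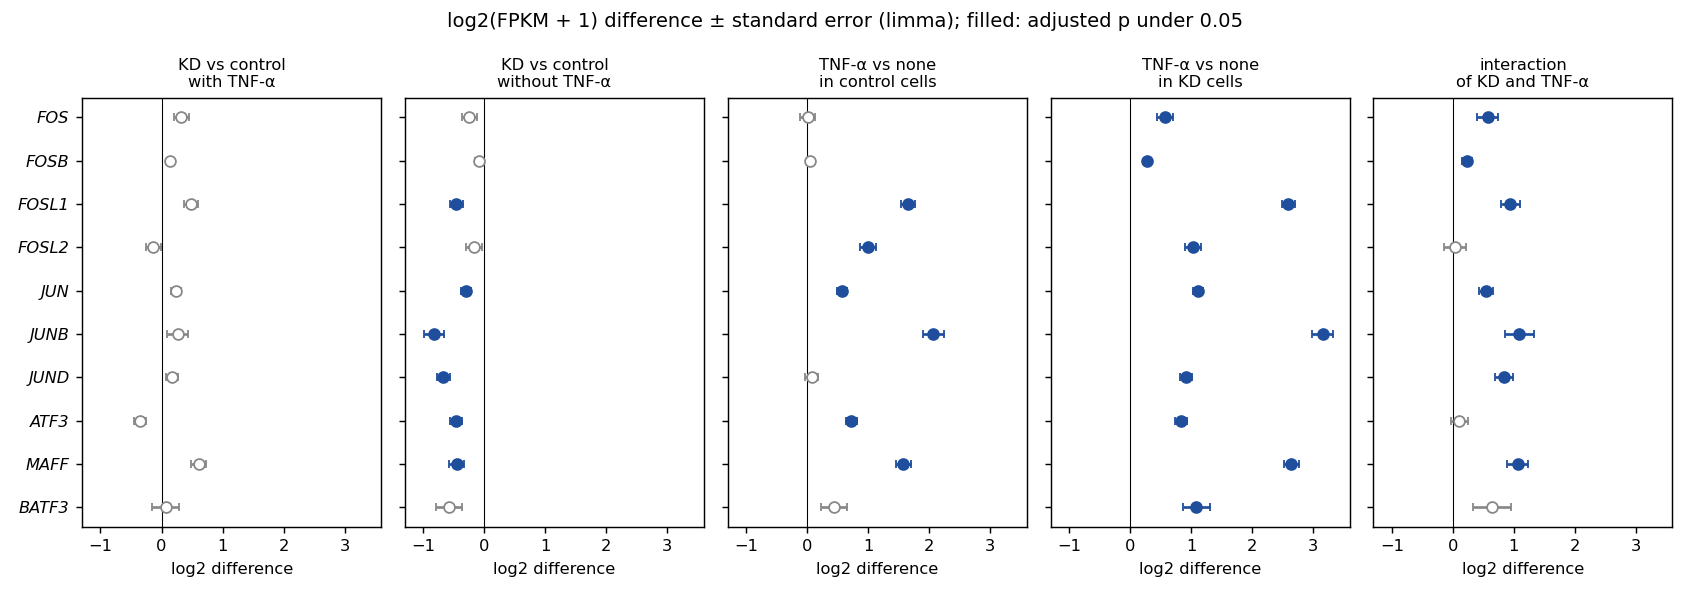
Difference on the log2(FPKM + 1) scale (x axis) for the 10 genes (y axis) in the 5 comparisons, from limma with deposited scaling. Bars are 1 standard error and filled points have an adjusted p under 0.05. TNF-α raises JUNB, FOSL1 and MAFF most in both kinds of cell, and no point is filled for KD against control with TNF-α.

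Summed over its members, the FOS family was at 104 and 108 FPKM in unstimulated control cells, 86.9 and 81.7 in unstimulated KD cells, 264 and 277 in stimulated control cells, and 329 and 328 in stimulated KD cells. The JUN family was at 214 and 187 FPKM, 147 and 132, 350 and 392, and 430 and 443 in the same order of groups. Both sums were higher in every stimulated library than in every unstimulated one, and highest in stimulated KD cells. In the mean the FOS family rose 2.55-fold and the JUN family 1.84-fold with TNF-α in control cells, with no test of the sums. The ratio of the FOS to the JUN family was 0.530 ± 0.0622 in unstimulated control cells, 0.604 ± 0.0193 in unstimulated KD cells, 0.732 ± 0.0351 in stimulated control cells and 0.754 ± 0.0187 in stimulated KD cells (SD, n = 2 each). After the GC and length correction the ratio in unstimulated KD cells was 0.550 ± 0.00839 (SD, n = 2), next to 0.549 ± 0.0437 in unstimulated control cells. In each group the JUN family was the larger.

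The makeup of each family changed with the stimulus. FOSL1 was 49.5% ± 8.65 of the FOS family in unstimulated and 61.2% ± 0.230 in stimulated control cells, and 70.6% ± 0.157 in stimulated KD cells (SD, n = 2 each). FOSL2 was 48.8% ± 8.69, 38.1% ± 0.349 and 28.6% ± 0.263 in the same groups. In unstimulated KD cells FOSL1 was 44.5% ± 0.812 and FOSL2 53.8% ± 0.564 of the family. After the GC and length correction they were 50.2% ± 0.870 and 47.5% ± 1.28 there (SD, n = 2 each). In stimulated cells the KD libraries thus held more FOSL1 and less FOSL2 than the control libraries, with no overlap. FOS and FOSB together stayed under 2% of the family in every library. JUNB was 18.3% ± 1.84 of the JUN family in unstimulated control cells, 42.3% ± 2.45 in stimulated control cells and 43.2% ± 0.0242 in stimulated KD cells, and the last pair lay within the range of the control libraries, 40.6% to 44.0%. JUND was 34.2% ± 1.29 of the family in unstimulated and 19.5% ± 0.777 in stimulated control cells. In unstimulated KD cells JUNB was 14.5% ± 1.75 and JUND 30.5% ± 0.767, and after the GC and length correction 15.6% ± 1.45 and 32.3% ± 1.13.

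**Figure D4:**
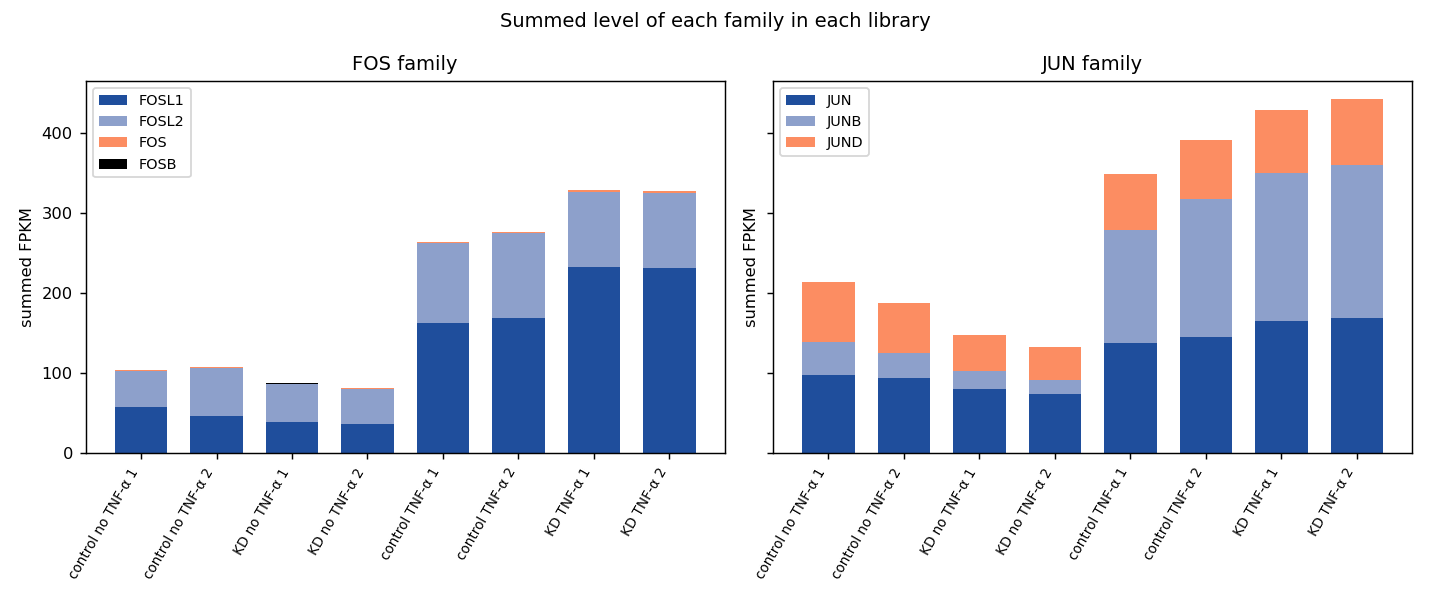
Summed FPKM (y axis, from 0) of the FOS family on the left and the JUN family on the right in each of the 8 libraries (x axis). Each bar stacks the family members by colour. With TNF-α the FOSL1 segment of the FOS family and the JUNB segment of the JUN family widen, and the FOS family bars reach 329 and 328 FPKM in stimulated KD cells against 264 and 277 in stimulated control cells.

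Other bZIP factors that pair or compete with these proteins were measured beside them. Of the genes listed, 21 passed the filter on low reads and were tested. TNF-α raised 2 of the 21 in control cells, CREB5 by 0.78 and CEBPB by 0.49 (log2), and lowered 0. There 3.1% of all genes were called higher, and the share called lower is not given here. The closest relatives of MAFF, the small MAF genes MAFG and MAFK, were at 0.36 and 0.24 (adjusted p = 0.116 and 0.438 from limma). In KD cells TNF-α raised MAFG by 0.92 and MAFK by 1.34, and both were called. Their interaction was also called, at 0.57 and 1.10 (adjusted p = 0.0150 and 0.00417 from limma). With the GC and length correction the interaction was at 0.15 and 0.51 (adjusted p = 0.428 and 0.0352 from limma). In KD cells with TNF-α 0 of the 21 were called against control, where 0.115% of all genes were called. Without TNF-α 9 were called higher and 8 lower in KD cells, against 29.8% and 30.2% of all genes. BACH1 at 1.55, ATF2 at 1.47 and ATF5 at -1.21 led these. In KD cells TNF-α raised 7 and lowered 9, against 31.1% and 31.4% of all genes, and the interaction was called for 8 above and 7 below 0, against 23.8% and 22.3%. With the GC and length correction 8 were called higher and 6 lower in KD cells without TNF-α, against 23.3% and 27.9% of all genes. TNF-α then raised 8 and lowered 8 in KD cells, against 28.9% and 27.3%. The interaction was called for 4 above and 5 below 0, against 19.1% and 14.9%. The corrected counts without TNF-α and for TNF-α in KD cells include BATF2, with 94 reads in all, at 0.47 and -0.27. As deposited BATF2 was at -0.09, not called, and at 0.31, called higher. It was under 1 FPKM in every library, so the limit of the correction given for FOSB holds here too.

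Among 22 kinases and factors upstream of AP-1, TNF-α raised 2 in control cells, against 3.1% of all genes. These were MAP2K3, a kinase that activates p38, at 0.89 and SRF, which drives FOS through the CArG box, at 0.48 (adjusted p = 0.00175 and 0.0453 from limma). With TNF-α, 0 of the 22 were called in KD against control cells, where 0.115% of all genes were called. Without it 11 were called higher and 9 lower, against 29.8% and 30.2% of all genes. ELK3 at 1.19, MAP2K2 at -1.10 and MAP3K7 at 1.07 led these. TNF-α raised 9 and lowered 10 in KD cells, against 31.1% and 31.4% of all genes, and the interaction was called for 9 above and 8 below 0, against 23.8% and 22.3%. After the GC and length correction 8 were called higher and 7 lower for KD without TNF-α, against 23.3% and 27.9% of all genes. TNF-α then raised 10 and lowered 6 in KD cells, against 28.9% and 27.3%. The interaction was called for 7 above and 1 below 0, against 19.1% and 14.9%. These counts include MAP2K6, with 66 reads in all, at -0.77, 0.68 and 0.78. As deposited MAP2K6 was at 0.06, -0.07 and -0.07 and not called. FOS itself, the textbook target of SRF, was at 0.01 with TNF-α in control cells.

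Of 18 textbook AP-1 target genes, TNF-α raised 7 and lowered 0 in control cells. There 3.1% of all genes were called higher, and the share called lower is not given here. CXCL8, the gene of IL-8, at 4.44, the gelatinase gene MMP9 at 2.66 and the growth factor gene HBEGF at 1.43 led the 7 raised genes. In KD cells TNF-α raised 13 and lowered 0, against 31.1% and 31.4% of all genes. In KD against control cells with TNF-α, all 18 were above 0, from 0.02 to 1.45. Their median was 0.32, against 0.00 over all genes tested. In 14 of the 18 both KD libraries were above both control libraries, against 23.9% of all genes. Only 2 were called, CXCL8 at 1.45 and HBEGF at 0.83 (adjusted p = 0.00398 and 0.0125 from limma). Of all genes, 0.115% were called there. Several of the 18, among them CXCL8, are also targets of NF-κB. Without TNF-α 2 were called higher and 7 lower in KD cells, against 29.8% and 30.2% of all genes. TIMP1 at -0.74, CXCL8 at 0.69 and PLAUR at -0.67 led these. The interaction was called for 10 of the 18, all above 0, against 23.8% of all genes. After the GC and length correction it was again called for 10, all above 0, against 19.1%. TNF-α then raised 13 and lowered 1 in KD cells, against 28.9% and 27.3% of all genes. In KD cells without TNF-α 2 were called higher and 4 lower, against 23.3% and 27.9%. CXCL8 was then not called without TNF-α, at 0.038 (adjusted p = 0.747 from limma).

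Of 7 genes for proteins that bind AU-rich mRNA, a feature of many short-lived transcripts such as that of FOS, TNF-α raised only ZFP36L1 in control cells, by 1.06 (adjusted p = 0.00123 from limma). Of all genes, 3.1% were called higher there. ZFP36, which speeds the decay of such transcripts, was at 0.15 in control cells and at 0.74 in KD cells (adjusted p = 0.722 and 0.00600 from limma), but its interaction was not called (0.59, adjusted p = 0.0773 from limma), and with the GC and length correction it was at 0.11 in KD cells (adjusted p = 0.580 from limma). With TNF-α 0 of the 7 were called in KD against control cells, where 0.115% of all genes were called. Without it 1 was called higher, TIA1 at 1.22, and 3 lower, against 29.8% and 30.2% of all genes. TNF-α in KD cells raised 5 of the 7 and lowered TIA1, against 31.1% and 31.4% of all genes, and the interaction was called for 2 above 0 and for TIA1 below it, against 23.8% and 22.3%. After the GC and length correction 3 were called higher and 2 lower in KD cells without TNF-α, against 23.3% and 27.9% of all genes. TNF-α then raised 4 and lowered 2 in KD cells, against 28.9% and 27.3%. The interaction was called for 2 above 0 and 1 below it, against 19.1% and 14.9%.

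Each of the 10 genes was also set beside the genes most like it over the 8 libraries, by Pearson correlation of log2(FPKM + 1) among 11616 genes with a mean of at least 1 FPKM. These are descriptions of 4 groups with 2 libraries each, which share depth and composition, with the deposited values and no GC and length correction. FOSL1 was closest to LIF and SERPINA1 (r = 0.999 for both), and MAFF to LIF and CYR61 (r = 0.998 for both). JUNB was closest to SLC25A22 and NFKB2, JUN to STX11 and CD82, and JUND to PARVB and LRFN4 (r = 0.998 for all 6). FOSL2 was closest to TRIM25 and TRIM56 (r = 0.996 and 0.990), and ATF3 to GABARAPL1 and DKC1 (r = 0.992 and 0.989). FOSB was closest to DNAJB6 and SPOCD1 (r = 0.986 and 0.985), BATF3 to SF3A3 and CA2 (r = 0.985 and 0.980), and FOS to SNCB and IRF2BP2 (r = 0.964 and 0.953). FOS thus had the lowest best match of the 10 genes, and LIF, a cytokine gene, was shared by FOSL1 and MAFF. By Spearman correlation, 0 genes were above the pairs of JUN and MAFF and 1808 were above BATF3 and CA2.

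Reads of a gene and of an overlapping gene on the other strand cannot be told apart if the counting ignored strand, which is not given in the sources used here. JUNB shares 259 exon bases with the antisense gene HOOK2, which had 2222 reads in all against 23890 for JUNB. The exons of FOSB, MAFF and FOSL2 share 0 bases with those of genes that overlap their span, which are ERCC1 for FOSB, PLA2G6 for MAFF, and FLJ31356 and AC104695.3 for FOSL2.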

How the data were processed

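The authors deposited FPKM values for 58735 genes in 8 libraries, from total RNA sequenced on an Illumina instrument by Novogene. The submitters' processing notes name CASAVA 1.8, fastp, HISAT2 2.0.5, featureCounts 1.5.0-p3, DESeq2 1.20.0 and GRCh38, with no role given. Each FPKM value times the exon length of its gene in GENCODE 29, which matched all 58735 genes, was a whole multiple of a library constant within 0.05 reads for 100% of values, and whole reads (15601098 to 18677023 per library) were recovered from it. The authors' library sizes equal median-of-ratios factors over all 8 libraries. The study's methods name edgeR, which was not run here, and the recovered reads entered a voom fit as an alternative.

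For differences of log2(FPKM + 1), limma 3.58.1 (R 4.3.3) was fitted with a trend on mean expression and 1 mean per group, which leaves 4 residual degrees of freedom, over the 16528 genes that reached 10 reads, scaled to the median depth, in 2 or more libraries and 15 reads in total. P-values are two-sided and adjusted by the Benjamini-Hochberg method over all 16528. The pseudocount understates changes of genes near or below 1 FPKM. Simulated reads with known changes served to test the code.

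The 10 genes and the other lists were chosen with earlier results of these data known. By rule the text names the 10 genes, WSB2, for each other list the 3 largest called differences per comparison, the 2 genes most like each of the 10 and overlapping genes. MAFG, MAFK, ZFP36, MAP2K6, BATF2 and the markers were named besides, all but the markers after their values were seen. Alternatives were a pseudocount of 0.1, total reads, upper-quartile factors, a voom fit, no filter, a mean of at least 1 CPM, only the libraries compared, a replicate block, each library left out in turn, and splines with 5 degrees of freedom on GC content and gene length. Leaving out both unstimulated KD libraries was added after the data were seen. Recovery of reads and drawing used Python 3.11.15 (pandas 2.3.3, numpy 2.4.6, matplotlib 3.10.9). Intervals between 2 libraries measure only their spread.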

Additional observations from a re-analysis of the deposited data

Results flagged for a closer look

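For 7 of the 10 genes the effect of the knockdown with TNF-α differed from that without TNF-α in the interaction test of limma at an adjusted p under 0.05. The difference between the effects was 1.09 for JUNB, 1.06 for MAFF, 0.94 for FOSL1, 0.84 for JUND, 0.57 for FOS, 0.54 for JUN and 0.23 for FOSB on the log2 scale. In each of the 7 the pair of KD libraries was above the pair of control libraries with TNF-α and below it without. All 7 values rest on the unstimulated KD libraries, whose reads came from genes of lower GC content, 50.1% and 50.6% against 53.2% to 53.8% in the other 6. With the GC and length correction the values were 0.42 for JUNB, 0.61 for MAFF, 0.35 for FOSL1, 0.17 for JUND, 0.03 for FOS, 0.08 for JUN and -0.17 for FOSB, of which MAFF and FOSL1 were called. Whether the remaining composition of those libraries has a part in the values was not tested. FOSB was under 1 FPKM throughout, so its turned sign may come from the correction itself.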

How the results depend on the processing

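Of 860 log2 differences under an alternative, 774 kept their direction and their side of the threshold, 15 passed it newly, 47 no longer passed it and 24 changed sign, and the cause was not tested. The number of the 10 genes called for KD against control with TNF-α was 0 and became 2 with only the libraries compared, 1 with the GC and length correction, and 0 to 1 with each library left out in turn. Without TNF-α it was 6 and became 2 with total reads, 2 with the GC and length correction, and 3 to 7 with libraries left out. For TNF-α in control cells it was 6 and became 3 with only the libraries compared and 3 to 7 with libraries left out. For the interaction it was 7 and became 4 with total reads and 2 with the GC and length correction, and the fit to only the libraries compared has no value because it needs all 8. With the replicate block it was 6, as FOSB was lost, and the block changed no other number of calls. With upper-quartile factors the number called without TNF-α rose, as given above. For TNF-α in KD cells the number was 10, and FOS was lost with total reads and with the GC and length correction. The share of all genes called was counted only for the deposited scaling and for the GC and length correction. Deviations of libraries with the same number correlated at -0.19 to 0.35 between groups, highest between unstimulated control and KD cells, and the numbers were not taken to pair the libraries because the correlation was not over 0.1 in every pair.

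With the GC and length correction the sign turned for FOS (0.30), FOSB (0.31), FOSL1 (0.15), JUN (0.16) and MAFF (0.0053) in KD against control without TNF-α, for FOS (-0.025) and FOSB (-0.027) with TNF-α in control cells, for FOSB (-0.20) with TNF-α in KD cells, and for FOSB (-0.17), FOSL2 (-0.085) and ATF3 (-0.085) in the interaction. With total reads it turned for FOSL2 (0.10) in KD against control without TNF-α, for FOS (-0.040) and JUND (-0.0039) with TNF-α in control cells, and for FOSL2 (-0.26) and ATF3 (-0.12) in the interaction. With upper-quartile factors it turned for FOS (-0.017) with TNF-α in control cells. For FOSB, under 1 FPKM in every library, signs turned by the GC and length correction may come from the correction itself. With each library left out, the differences that changed sign were BATF3 (-0.0067 to 0.14) for KD with TNF-α, FOSL2 (-0.37 to 0.029) for KD without TNF-α, FOS (-0.091 to 0.11) and JUND (-0.061 to 0.21) for TNF-α in control cells, and FOSL2 (-0.16 to 0.24) in the interaction.

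The summed FPKM moved by more than the spread of the replicates in 26 of 36 values. In unstimulated control cells the FOS family was at 112 with upper-quartile factors and 100.8 with the GC and length correction, and all 10 genes at 297 with that correction. In unstimulated KD cells total reads, upper-quartile factors and the correction gave 100.7, 75.1 and 104 for the FOS family, 167, 125 and 189.9 for the JUN family, and 277, 207 and 305 for all 10. In stimulated control cells total reads gave 252 for the FOS family and 624 for all 10, and the correction gave 247, 330.3 and 605 for the FOS family, the JUN family and all 10. In stimulated KD cells total reads, upper-quartile factors and the correction gave 302, 339 and 299 for the FOS family, 400.4, 450.2 and 388 for the JUN family, and 737, 829 and 722 for all 10. FOSB with 13 to 39 reads and FOS with 71 to 133 reads per library limit what these data can show of those 2 genes.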
